A study of Mus musculus with 12 samples.

Results

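Doxorubicin given alone (DOX) was compared with PBS (Ctrl) across all genes in tumours of MC38, a mouse colon carcinoma line. The comparison holds 4 of the 12 libraries of the series, which were chosen by their agent label: 2 of DOX and 2 of Ctrl. All 4 came from tumours grown under the skin of the flank of C57BL/6J mice that were 8 weeks old at inoculation. Ctrl mice received PBS, and DOX mice received 14 µg of doxorubicin (0.56 mg/kg), both into the peritoneal cavity every 3 days from day 9, and tumours were taken on day 20. The whole tumour was the source of RNA, so each library mixes carcinoma cells with the host's immune, vascular and connective tissue cells. The other 8 libraries, 2 each of the doxorubicin prodrug DPD, the antibody-catalyst conjugate Ru-PD-L1 (RP) and the conjugate with DOX (R+X) or with DPD (R+D), entered the estimate of the spread between libraries. Whether replicate libraries stem from different mice is not stated in the labels, and p-values then cover only the variation among the libraries at hand, part of which can be technical.

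Doxorubicin is an anthracycline that inserts between DNA bases and traps topoisomerase II on the broken strands. The breaks can stabilise the transcription factor p53, which induces genes of cell cycle arrest, repair and apoptosis. Dying tumour cells can also release signals that draw in antigen-presenting cells, which show peptides to CD4 T cells on MHC class II molecules. MC38 is widely used as an immune-responsive tumour in this mouse strain.

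Total counts ran from 47748895 to 51719272 in the 4 libraries. Levels are CPM, TMM-scaled counts relative to library size. Of 16 genes of simple epithelium, 12 passed the low-count filter, and their summed level was 25.0 to 31.6 CPM in the 4 libraries. Those that did not pass were Krt8, Krt18, Cldn7 and Cdx2. Cdx2, an intestinal transcription factor, had 0 counts in all 12 libraries. Krt8 had 0, 0, 14 and 2 counts in Ctrl replicate 1, Ctrl replicate 2, DOX replicate 1 and DOX replicate 2, and Krt18 had 0, 3, 0 and 0. Cdh1, which encodes E-cadherin, was at 10.4 to 15.7 CPM and Krt14, a basal keratin, at 259 to 408 CPM. The 2 DOX libraries stood apart from each other, as described in full further on. Of the 10547 genes at 10 CPM or more in either of them, 1154 (10.9%) differed at least 2-fold, against 0.145% to 1.18% between the libraries of the other groups. Each value below is therefore given for both DOX libraries.

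What systemic low-dose DOX changed was asked by testing DOX against Ctrl over 19525 genes. No gene passed the edgeR quasi-likelihood test at a Benjamini-Hochberg adjusted p under 0.05 (0% of genes called in either direction). The smallest edgeR adjusted p was 0.290. At an unadjusted p under 0.05, edgeR placed 168 genes higher with DOX (0.86%) and 239 lower (1.22%), which together are 2.08% of genes. At this unadjusted threshold the counts moved both up and down when 1 library was left out, in fits that held 1 library of DOX or of Ctrl. DESeq2 called 1 gene higher, Pakap, and limma-voom called 0. Both DOX libraries lay above both Ctrl libraries in 1619 genes (8.29%) and below both in 1841 (9.43%). The median log2 fold change of all genes was 0.00998, with 51.4% of genes above 0 and 48.5% below.

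**Figure D1:**
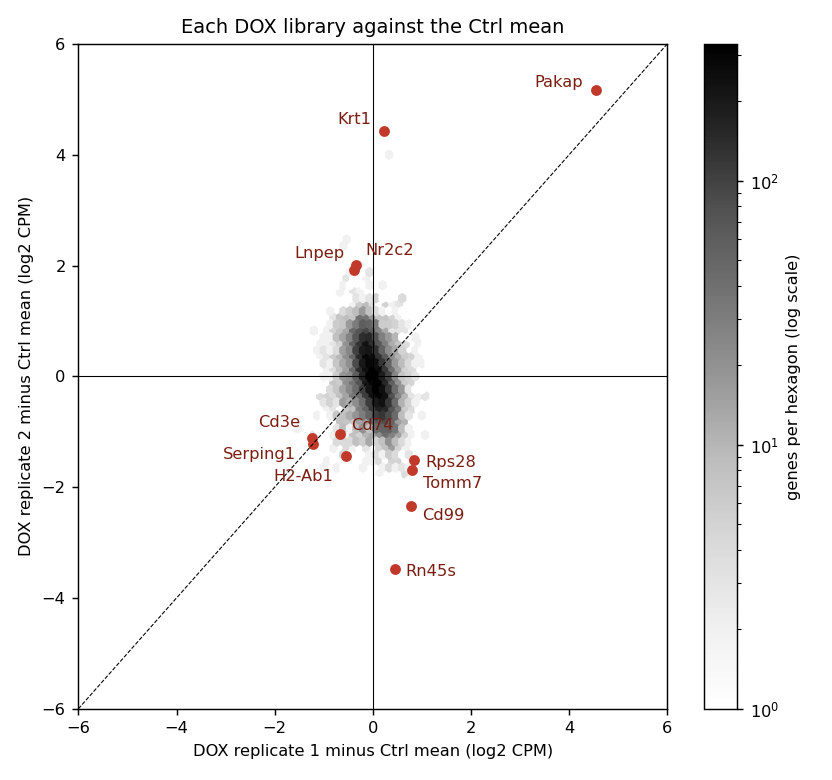
Difference of each DOX library from the Ctrl mean (log2 CPM), DOX replicate 1 on the horizontal and DOX replicate 2 on the vertical axis, for genes with a mean of at least 1 CPM; shading counts genes per hexagon on a log scale, the dashed line marks equal differences, and red points mark genes named in the text. The cloud is stretched along the vertical axis and tilts away from the dashed line. Pakap lies near that line at 4.54 and 5.16, and Rn45s, Cd99 and Rps28 lie on opposite sides of 0 in the 2 libraries.

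Pakap had the smallest p of all genes. It is annotated at a locus shared with Akap2 and Palm2, which encode an anchor of protein kinase A and a paralemmin, and its counts are uncertain because reads of these overlapping genes may be split between names. Pakap was at 1.41 and 1.07 CPM in Ctrl replicates 1 and 2 and at 29.5 and 45.3 CPM in DOX replicates 1 and 2. The groups were far apart, but the other 8 libraries held 20.9 to 94.8 CPM, so that the Ctrl libraries, not the DOX libraries, were the ones outside the range of the rest. The log2 fold change was 4.91 ± 0.65 (SE, n = 2 against 2; edgeR adjusted p = 0.290). The gene lies on chromosome 4 from 57434475 to 57896984 (GRCm38, RefSeq, protein coding). With only the DOX and Ctrl libraries in the fit, edgeR called Pakap (adjusted p = 0.0152) and the predicted gene Gm45935, which had 0 CPM in both Ctrl libraries and 4.10 and 6.70 CPM in the DOX libraries.

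The naming rule kept only genes whose groups do not overlap. On the higher side the others of smallest p were Dpyd, Matn2, Arhgef28, Cfap36, F13a1, Rab42, Kdm5b, Ust, Lpar1, Tctn1 and Adamts7, each with an edgeR adjusted p = 1. Matn2, which encodes the matrix protein matrilin-2, was at 33.2 and 35.7 CPM in Ctrl and at 48.7 and 51.7 CPM in DOX (log2 fold change 0.54 ± 0.16). F13a1, the coagulation factor XIII A chain made by macrophages and platelets, was at 15.2 and 15.4 CPM in Ctrl and at 24.9 and 28.8 CPM in DOX (0.81 ± 0.25). In F13a1 the other 8 libraries reached 25.9 to 73.9 CPM, all above both Ctrl libraries, whereas in Matn2 they held 23.9 to 41.1 CPM, all below both DOX libraries. Dpyd, which encodes the enzyme that breaks down pyrimidines and fluorouracil, was at 0.608 and 0.882 CPM in Ctrl and at 1.52 and 2.11 CPM in DOX (1.28 ± 0.38). Kdm5b, a histone H3 lysine demethylase, was at 12 CPM in both Ctrl libraries and at 16.0 and 18.6 CPM in DOX (0.52 ± 0.17). Lpar1, a receptor of lysophosphatidic acid, was at 13.9 and 13.2 CPM against 17.2 and 23.5 CPM (0.58 ± 0.19). Adamts7, a secreted metalloprotease gene, was at 51.2 and 38.7 CPM against 62.5 and 62.3 CPM (0.47 ± 0.16). The remaining 5 had log2 fold changes from 0.51 in Tctn1, a gene of the ciliary transition zone, to 0.93 in Rab42, a small GTPase.

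On the lower side the genes of smallest p were Rmi2, Napsa, Serping1, Cd74, H2-Aa, Nup210, Fibin, Csf2ra, Sdr39u1, H2-Eb1, Cd3e and Hvcn1, again each with an edgeR adjusted p = 1. Rmi2, a subunit of the BLM helicase complex that resolves recombination intermediates, was at 12.6 and 15.3 CPM in Ctrl and at 8.71 and 7.73 CPM in DOX (log2 fold change -0.76 ± 0.18). It lies on chromosome 16 from 10835059 to 10843235. Serping1, which encodes the C1 inhibitor of complement, was at 24.7 and 25.2 CPM in Ctrl and at 10.7 CPM in both DOX libraries (-1.22 ± 0.34). The 2 DOX libraries were nearly equal in Serping1 and stood below the 13.1 to 83.0 CPM of the other 8 libraries. Napsa, an aspartic protease gene, was at 8.52 and 7.52 CPM against 4.37 and 2.71 CPM (-1.18 ± 0.29). Csf2ra, the receptor subunit for the growth factor GM-CSF, was at 30.7 and 28.3 CPM against 21.9 and 17.2 CPM (-0.60 ± 0.18). Hvcn1, a proton channel of phagocytes and B cells, was at 10.6 and 11.8 CPM against 6.33 and 6.86 CPM (-0.77 ± 0.23). Of these 12 genes, Cd74, H2-Aa and H2-Eb1 belong to MHC class II presentation and Cd3e to T cells.

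MHC class II genes were lower with DOX as a list, in both DOX libraries. Of the 12 members tested, 11 lay lower in both DOX libraries than in both Ctrl libraries, against 9.43% of all genes, and 6 had an unadjusted p under 0.05, against 1.22%. The median log2 fold change was -0.58, against 0.00998 over all genes tested, and 0 members passed edgeR over all genes. Without DOX replicate 1 the median was -0.97, and without DOX replicate 2 it was -0.41. The summed level of the 12 was 1562 and 1698 CPM in Ctrl and 1090 and 813 CPM in DOX. The other 8 libraries ranged from 1000 to 1773 CPM, so that only DOX replicate 2 lay outside them. In Cd74 their median was 592 CPM, below both Ctrl libraries, and DOX replicate 1 lay within their range of 513 to 937 CPM. High Ctrl levels and low DOX levels cannot be told apart here.

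Most of these genes share a promoter module, an X box followed at a short distance by a Y box, which is the inverted CCAAT motif. The factors on this module recruit CIITA, the master coactivator of the class. A search for GCAAC followed on the gene's strand by ATTGG after 20 to 40 bases was made in RefSeq promoter windows of 300 bases (250 before to 50 after the start, GRCm38.p6). Of the 13 list members, 10 had a window and 5 held this spacing: H2-Aa, H2-Eb1, H2-Eb2, H2-Oa and H2-Ob. Of all 32851 windows, 0.469% held it on the gene's strand and 1.01% on either strand. The stretches of H2-Aa and H2-Eb1, among the members of lowest p, and of H2-Ob, the member that did not lie lower, are shown 5′ to 3′ on the gene's strand, with the searched letters in capitals.
H2-Aa, chr17:34287855-34287916, minus strand: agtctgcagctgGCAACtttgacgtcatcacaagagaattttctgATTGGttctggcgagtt
H2-Eb1, chr17:34305764-34305824, plus strand: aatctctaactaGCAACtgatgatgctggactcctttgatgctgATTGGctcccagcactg
H2-Ob, chr17:34238806-34238864, plus strand: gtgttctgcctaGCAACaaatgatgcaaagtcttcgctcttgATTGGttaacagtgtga
The match is a description of these letters only. The gap between GCAAC and ATTGG was 28 bases in H2-Aa, 27 in H2-Eb1 and 25 in H2-Ob.

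The invariant chain gene Cd74, which escorts class II molecules to the endosome, was at 858 and 924 CPM in Ctrl and at 561 and 434 CPM in DOX. The groups did not overlap, and the log2 fold change was -0.84 ± 0.23 (edgeR unadjusted p = 0.00463, adjusted p = 1). H2-Aa, an alpha chain, was at 131 and 145 CPM in Ctrl and at 83.3 and 64.3 CPM in DOX (-0.91 ± 0.26). The beta chains followed the same order of libraries, with Ctrl replicate 2 highest and DOX replicate 2 lowest. H2-Ab1 was at 134 and 157 CPM in Ctrl and at 98.8 and 53.5 CPM in DOX (-0.93 ± 0.36), and H2-Eb1 at 117 and 130 CPM against 77.4 and 54.1 CPM (-0.91 ± 0.27). H2-DMa and H2-DMb1 encode the chaperone that exchanges peptides on class II molecules. H2-DMa was at 23.9 and 30.2 CPM in Ctrl and at 20.8 and 14.1 CPM in DOX (-0.64 ± 0.24). H2-DMb1 was at 35.7 and 43.1 CPM against 34.7 and 19.7 CPM (-0.53 ± 0.26), so that DOX replicate 1 lay just under the Ctrl libraries. Ctss, the cathepsin that trims the invariant chain, was at 212 and 208 CPM against 169 and 136 CPM (-0.46 ± 0.19). Ciita itself was at 14.0 and 11.6 CPM in Ctrl and at 9.37 and 9.11 CPM in DOX (-0.47 ± 0.23). H2-Ob, an inhibitor of peptide exchange, was the exception at 0.118 and 0.325 CPM against 0.331 and 0.243 CPM. Fewer antigen-presenting cells and less RNA per cell cannot be told apart in these bulk libraries. All 12 members were higher in DOX replicate 1 than in DOX replicate 2, whereas 49.8% of all genes tested were.

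Markers of the cells that carry class II molecules did not all share this order. Of 18 macrophage genes tested, 4 lay lower in both DOX libraries (9.43% of all genes) and 0 higher (8.29%). Their median log2 fold change was -0.21. Lyz2, the lysozyme of myeloid cells, was at 834 and 959 CPM in Ctrl and at 820 and 643 CPM in DOX, while Adgre1, which encodes the macrophage marker F4/80, was at 20.5 and 18.9 CPM against 19.3 and 20.6 CPM. Among 11 dendritic cell genes, 2 lay lower (9.43% of all genes) and 2 higher (8.29%). Itgax, which encodes CD11c, was at 17.1 and 20.8 CPM in Ctrl and at 12.2 and 13.5 CPM in DOX (-0.56 ± 0.24). Flt3, the receptor that sustains dendritic cell precursors, was at 0.137 and 0.209 CPM against 0.573 and 0.648 CPM (1.81 ± 0.59) at levels too low to weigh singly. B and plasma cell genes were under 3 CPM in all 4 libraries. Of 6 tested, 3 lay lower (9.43% of all genes) and 1 higher (8.29%), with a median of -0.46. Jchain, the joining chain of secreted antibodies, was at 2.43 and 1.76 CPM in Ctrl and at 0.243 and 0.709 CPM in DOX (-2.13 ± 1.04). Ms4a1, which encodes CD20, had 0, 0, 3 and 0 counts. The part of these cells in the class II values was not tested.

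T cell genes also lay lower with DOX, at low levels. Of 18 members tested, 10 were lower in both DOX libraries than in both Ctrl libraries (9.43% of all genes) and 0 higher (8.29%), with a median log2 fold change of -0.52 and 0 members past edgeR over all genes. Without each of the 4 libraries in turn the median ran from -0.64 to -0.34. Cd3e, a signalling chain of the T cell receptor complex, was at 3.75 and 4.02 CPM in Ctrl and at 1.63 and 1.78 CPM in DOX (-1.18 ± 0.36, edgeR unadjusted p = 0.00759). The DOX libraries were alike in Cd3e and lay under the other 8 libraries, which held 2.05 to 6.96 CPM. Zap70, the kinase that acts on this complex, was at 3.06 and 2.34 CPM in Ctrl and at 1.57 and 1.40 CPM in DOX (-0.87 ± 0.32). Cd5, a receptor that tunes T cell signalling, was at 1.2 and 1.09 CPM against 0.507 and 0.547 CPM (-1.11 ± 0.51). Lck, the kinase bound to the CD4 and CD8 coreceptors, was at 4.55 and 4.64 CPM against 3.57 and 2.88 CPM (-0.51 ± 0.27). The coreceptor gene Cd8a overlapped between groups, at 8.14 and 4.48 CPM in Ctrl and at 4.92 and 4.43 CPM in DOX (-0.43 ± 0.44). Tcf7, a transcription factor of naive and stem-like T cells and also of other lineages, was the only member with a value above 0, at 45.6 and 38.4 CPM against 40.1 and 49.0 CPM. The receptor genes Trbc1 and Trbc2 had 0 counts in all 12 libraries and Trac had 0 in these 4.

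Cytotoxic and NK cell genes were split, with 4 of 14 lower (9.43% of all genes) and 3 higher (8.29%) in both DOX libraries. Ctsw, a cathepsin of cytotoxic lymphocytes, was at 3.92 and 3.76 CPM in Ctrl and at 2.60 and 1.92 CPM in DOX (-0.76 ± 0.28). Nkg7, a granule gene of the same cells, was at 6.14 and 6.29 CPM against 4.15 and 3.32 CPM (-0.74 ± 0.38). The effector genes Gzmb and Prf1 overlapped between groups, Gzmb at 10 and 6.45 CPM against 7.70 and 6.13 CPM and Prf1 at 8.95 and 6.29 CPM against 9.68 and 6.56 CPM. Among 12 checkpoint genes, 2 lay lower (9.43% of all genes). Cd274, which encodes PD-L1, was at 21.4 and 19.3 CPM in Ctrl and at 14.0 and 24.1 CPM in DOX, 1 DOX library below and 1 above both Ctrl libraries. Pdcd1, which encodes PD-1, was at 3.02 and 3.06 CPM against 2.51 and 2.23 CPM.

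Markers of skeletal muscle, which can be taken along with a flank tumour, lay in the same direction as the T cell and class II genes. Their summed level was 33.7 and 28.4 CPM in Ctrl and 18.5 and 15.2 CPM in DOX. The other 8 libraries ranged from 16.2 to 407 CPM. Of 18 members tested, 11 lay lower (9.43% of all genes) and 1 higher (8.29%), with a median log2 fold change of -1.24, and Myh7 had 0 counts in all 4 libraries. Acta1, skeletal alpha actin, was at 12 and 9.05 CPM in Ctrl and at 3.97 and 4.19 CPM in DOX (-1.37 ± 0.82). The part of muscle in the differences of other genes was not tested.

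Globin genes lay the other way. All 5 red blood cell genes tested were higher in both DOX libraries than in both Ctrl libraries, against 8.29% of all genes, with a median log2 fold change of 0.55. Their summed level was 223.2 and 260.3 CPM in Ctrl and 368 and 347 CPM in DOX, and all 4 libraries stood above the 21.7 to 124 CPM of the other 8. Hbb-bt, a beta globin, was at 32.6 and 40.8 CPM in Ctrl and at 55.1 and 67.4 CPM in DOX (0.74 ± 0.55). Alas2, the heme synthesis enzyme of red cell precursors, was at 1.39 and 1.88 CPM against 2.36 and 2.51 CPM. The globin genes are near-identical copies and their single values are uncertain, and 0 of the 5 had an unadjusted edgeR p under 0.05.

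Fibroblast and matrix genes divided in 2 directions. Of 14 members, 6 lay higher (8.29% of all genes) and 5 lower (9.43%) in both DOX libraries. At an unadjusted p under 0.05, 3 were higher (0.86% of all genes) and 1 lower (1.22%). Col3a1, which encodes type III collagen, was at 3960.1 and 3109 CPM in Ctrl and at 4479.5 and 5736 CPM in DOX (0.53 ± 0.23). The growth factor receptor genes Pdgfrb and Pdgfra, which mark pericytes and fibroblasts, were also higher. Pdgfrb was at 140 and 103 CPM against 146 and 179 CPM (0.42 ± 0.17), and Pdgfra at 40.7 and 36.8 CPM against 44.6 and 64.8 CPM (0.50 ± 0.22). Mfap5, a microfibril protein gene, was lower at 13.2 and 15.7 CPM against 9.31 and 6.26 CPM (-0.89 ± 0.35). Of 9 matrix protease genes and their inhibitors, 5 lay higher (8.29% of all genes) and 0 lower, such as Mmp14, a membrane-bound protease, at 425 and 389 CPM against 526 and 429 CPM (0.23 ± 0.15).

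Among genes nearest to the drug's own action were 8 topoisomerase genes and enzymes that remove trapped topoisomerase. Of these, 0 lay higher (8.29% of all genes) and 0 lower (9.43%) in both DOX libraries, with a median log2 fold change of 0.05. Top2a, the proliferation-linked target of doxorubicin, was at 596 and 524 CPM in Ctrl and at 510 and 703 CPM in DOX (0.11 ± 0.20). Top2b was at 117 and 104 CPM against 94.0 and 176 CPM (0.29 ± 0.27). In both, DOX replicate 1 was the lowest and DOX replicate 2 the highest of the 4 libraries. Of 15 tested genes of anthracycline transport and metabolism, 1 lay lower (9.43% of all genes) and 0 higher (8.29%), with a median of 0.00044. The exporter gene Abcb1a was at 5.28 and 4.50 CPM in Ctrl and at 4.15 and 4.25 CPM in DOX, its copy Abcb1b at 61.2 and 60.1 CPM against 50.5 and 72.7 CPM, and Abcc1 at 65.4 and 53.1 CPM against 59.7 and 75.7 CPM. Cbr1, which reduces doxorubicin to its alcohol, was at 2.71 and 2.81 CPM against 3.66 and 1.54 CPM.

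Of 27 p53 target genes, 4 lay higher in both DOX libraries and 1 lower, with a median log2 fold change of 0.01. Over all genes 8.29% lay higher and 9.43% lower, so nothing is read from these counts about the list. Cdkn1a, the p21 inhibitor of cell cycle kinases, was at 95.1 and 98.4 CPM in Ctrl and at 105 and 65.9 CPM in DOX (-0.18 ± 0.20). Mdm2, the ligase that degrades p53, was at 44.2 and 49.6 CPM against 41.6 and 52.2 CPM, with a fold change of 0.0017 ± 0.18 on the log2 scale. Bax, a pore-forming apoptosis gene, was at 61.7 and 79.8 CPM against 96.3 and 41.2 CPM, the highest and the lowest of the 4 libraries both being DOX. Polk, a polymerase that copies past damaged bases, was higher at 18.1 and 18.5 CPM against 20.9 and 30.0 CPM (0.48 ± 0.21), and Trp53inp1, a stress-induced partner of p53, at 2.18 and 1.95 CPM against 2.34 and 4.86 CPM (0.80 ± 0.37). Plk3, a stress kinase, was lower at 25.8 and 20.4 CPM against 18.3 and 13.6 CPM (-0.53 ± 0.21).

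The counts of the lists that follow are to be read against 8.29% of all genes higher and 9.43% lower in both DOX libraries. Among 29 genes of DNA break repair, 3 lay lower, Rmi2, Rad52 and Rad54l, and 0 higher. Of 28 cell cycle genes, 5 lay lower and 0 higher, with a median log2 fold change of -0.09. Rrm2, the ribonucleotide reductase subunit that limits nucleotide supply in S phase, was at 133 and 130 CPM in Ctrl and at 97.8 and 103 CPM in DOX (-0.39 ± 0.15). Mki67, the Ki-67 gene, overlapped at 257 and 188 CPM against 211 and 367 CPM. Of 20 genes of the BCL2 family and caspases, 1 lay higher and 3 lower, and of 13 genes of immunogenic cell death, 1 higher and 1 lower. Among 9 genes of cytosolic DNA sensing 2 lay lower, one of them Tmem173, which encodes STING, at 49.7 and 46.4 CPM against 45.3 and 37.2 CPM. Of 20 type I interferon response genes, 0 lay higher and 2 lower, although the median was 0.22. Of the 20, 16 were higher in DOX replicate 2, whereas 49.8% of all genes tested were higher in DOX replicate 1. Of 19 inflammatory cytokine genes, 4 lay higher and 5 lower. Cxcl1, a neutrophil chemokine, was at 3.63 and 2.53 CPM in Ctrl and at 4.87 and 10 CPM in DOX (1.27 ± 0.45), and Osm, an IL-6 family cytokine, was at 2.34 and 2.55 CPM against 1.46 CPM in both DOX libraries (-0.75 ± 0.32). All 24 cytosolic ribosomal protein genes (median -0.11) and all 24 genes of oxidative phosphorylation (median -0.19) had values below 0, against 48.5% of all genes, but DOX replicate 1 lay above the Ctrl mean in the median of both lists (0.22 and 0.07) and DOX replicate 2 below it (-0.57 and -0.54). None of the 575 distinct list genes tested passed edgeR over all genes.

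The difference between the 2 DOX libraries was larger than between the libraries of any other group. Of the 10547 genes at 10 CPM or more in either, 627 (5.94%) were at least 2-fold higher in DOX replicate 1 and 527 (5%) in DOX replicate 2. The Ctrl libraries differed at least 2-fold in 56 genes (0.537%), DPD in 100 (0.955%), RP in 125 (1.18%), R+X in 15 (0.145%) and R+D in 121 (1.15%). The SD of the log2 ratio was 0.651 in DOX and 0.216 to 0.426 in the other groups. Counting noise was small beside this, since chi-square divided by its degrees of freedom was 216 in DOX and 13.5 to 80.6 elsewhere. The correlation of log2 CPM between the DOX libraries was 0.968 over genes, which are not independent. DOX replicate 1 correlated best with Ctrl replicate 2 (0.982) and DOX replicate 2 with R+X replicate 1 (0.982). DOX replicate 1 was the highest of the 12 libraries in 22% of genes and the lowest in 15.7%, and DOX replicate 2 in 21.5% and 14.9%. Ctrl replicate 2 was as often at an extreme, highest in 20.6% and lowest in 19.5%. With 1 library against 1 there is no test of this difference.

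Transcript length separated the genes of the 2 directions. Genes at least 2-fold higher in DOX replicate 1 had a median longest transcript of 1292 bases, those higher in DOX replicate 2 one of 6886 bases, and all genes compared one of 3487 bases (GENCODE M21 lengths, available for 94.2% of genes). Among the 141 genes of up to 750 bases, 53.2% were at least 2-fold higher in DOX replicate 1 and 0% in DOX replicate 2. Among the 105 genes of over 12000 bases, 0% were higher in DOX replicate 1 and 43.8% in DOX replicate 2. The median difference, DOX replicate 1 minus DOX replicate 2, went from 1.01 log2 units in the shortest class through 0.76, 0.32, -0.16 and -0.66 to -0.95 in the longest. Spearman's rho over genes was -0.677 with length and 0.567 with GC content, as a description of these libraries. The Ctrl libraries also differed with length (rho 0.673), over a smaller range of class medians, from -0.55 in the shortest to 0.54 in the longest. The DPD libraries had a rho of -0.676, close to that of DOX, and class medians from 0.47 to -0.61, and RP had a rho of -0.459 with length and 0.566 with GC content. Against the Ctrl mean, the shortest class stood at 0.26 in DOX replicate 1 and at -0.80 in DOX replicate 2. The comparison of DOX with Ctrl also varied with length, with a rho of 0.349 between log2 fold change and length over 16252 genes. Its class medians, taken only over genes at 10 CPM or more in either DOX library, went from -0.18 in the shortest to 0.41 in the longest. With offsets for length and GC content in the fit, the median of the class II list was -0.56, that of T cells -0.42 and that of fibroblasts and matrix 0.07, against -0.58, -0.52 and 0.14 without them. RNA quality values were not used here, and the part of library preparation in this pattern was not tested.

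**Figure D2:**
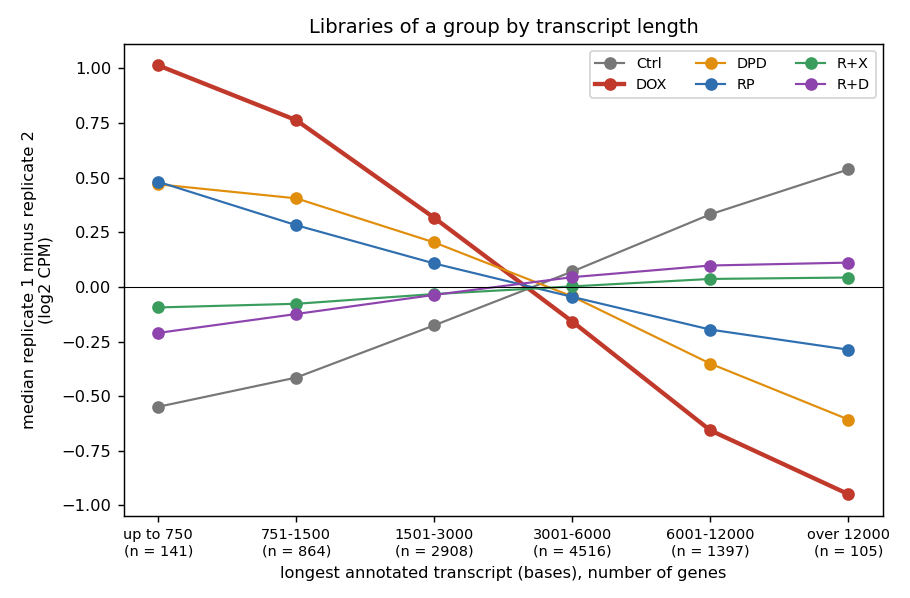
Median difference between the 2 libraries of each group (replicate 1 minus replicate 2, log2 CPM) by the length of the longest annotated transcript, with the number of genes at 10 CPM or more in either DOX library per class. The DOX line runs from 1.01 in the shortest to -0.95 in the longest class and is the steepest of the 6, and the R+X line stays within 0.1 of 0.

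The 12 genes furthest above DOX replicate 2 in DOX replicate 1 were Rn45s, Cd99, Tomm7, Uqcr11, Naa38, Dpm1, Rps28, Lockd, Rps10, Romo1, Crip1 and Ndufs6, several of which encode small proteins of the ribosome or the mitochondrion. Cd99, a cell surface glycoprotein gene, was at 40.8 and 35.7 CPM in Ctrl and at 65.5 CPM in DOX replicate 1 and 7.51 CPM in DOX replicate 2. Tomm7, a subunit of the mitochondrial import pore, was at 24.4 and 26.6 CPM in Ctrl and at 44.2 CPM in DOX replicate 1 and 7.90 CPM in DOX replicate 2. Uqcr11, a subunit of respiratory complex III, was at 27.7 and 35.1 CPM in Ctrl and at 56.8 and 10.3 CPM in DOX, and Rps28, of the small ribosomal subunit, at 66.3 and 94.3 CPM against 142 and 27.8 CPM. In each, the Ctrl libraries lay between the DOX libraries. Ndufs6, of complex I, Romo1, a mitochondrial redox protein, Rps10 and Naa38, a subunit of an acetyltransferase, showed the same order, with log2 ratios of 2.15, 2.21, 2.23 and 2.45. The largest ratio was that of Rn45s, the ribosomal RNA precursor, at 229 and 425 CPM in Ctrl and at 426 CPM in DOX replicate 1 and 27.9 CPM in DOX replicate 2. In Rn45s DOX replicate 2 was the lowest of all 12 libraries, since the other 8 held 80.6 to 272 CPM. All 24 cytosolic ribosomal protein genes tested were higher in DOX replicate 1, with a median difference of 0.84. Of these, 9 were at least 2-fold apart, against 9.07% of all genes tested and 5.94% of genes at 10 CPM or more. In oxidative phosphorylation 23 of 24 genes were higher in DOX replicate 1, with a median of 0.66. In MHC class I presentation 15 of 17 were higher in DOX replicate 1 (median 0.69), and in hypoxia and glycolysis 16 of 18 (median 0.46). Over all genes tested, 49.8% were higher in DOX replicate 1. The Ctrl libraries also differed in some of these lists. Their medians (Ctrl replicate 1 minus Ctrl replicate 2) were -0.63 in ribosomal proteins, -0.41 in oxidative phosphorylation and -0.26 in hypoxia and glycolysis. In MHC class I presentation the Ctrl median was 0.006.

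The 12 genes furthest above DOX replicate 1 in DOX replicate 2 were of other kinds. They were Sprr2a2, Sprr2a1, Zfp968, Zbed6, Npcd, Lnpep, Prrg4, Nr2c2, Fam126b, Krt6a, Tnks and Dpy19l4. Lnpep, the membrane aminopeptidase that travels with the glucose transporter, was at 18.5 and 8.22 CPM in Ctrl, at 9.70 CPM in DOX replicate 1 and at 49.8 CPM in DOX replicate 2. Nr2c2, a nuclear receptor, was at 32.8 and 10.9 CPM in Ctrl and at 14.6 and 71.9 CPM in DOX, and Tnks, the tankyrase that modifies telomere proteins, at 40.7 and 13.3 CPM against 19.3 and 84.9 CPM. These long transcripts lay within the range of the other 8 libraries in DOX replicate 2, and below it in DOX replicate 1. Ctrl replicate 2 also lay below that range in each of these genes, and Ctrl replicate 1 in Lnpep and Tnks. Krt6a, a keratin of activated epidermis, was at 5.04 and 0.650 CPM in Ctrl and at 3.20 and 14.4 CPM in DOX, and Sprr2a1, a cornified envelope gene with a near-identical copy, at 5.97 and 0.232 CPM against 1.61 and 21.0 CPM. Of 15 skin genes, 11 were higher in DOX replicate 2, 8 of them at least 2-fold (11.2% of all genes tested were), with a median difference of 1.19 log2 units in its favour. The Ctrl libraries were further apart in this list, with a median of 1.88 log2 units higher in replicate 1. The summed level of the skin genes was 427 CPM in DOX replicate 1 and 306 CPM in DOX replicate 2 with Krt14 alone at 400 and 259 CPM. Krt1, of differentiated epidermis, was at 4.22 and 0 CPM in Ctrl and at 0.441 and 8.75 CPM in DOX. Of the 20 type I interferon response genes, 16 were higher in DOX replicate 2, such as Ifit1 at 18.9 and 45.1 CPM and Rsad2, an antiviral enzyme, at 9.75 and 23.6 CPM in DOX replicates 1 and 2. Isg15, a short ubiquitin-like gene of the same response, went the other way at 29.1 and 13.3 CPM. Of 19 inflammatory cytokine genes, 16 were higher in DOX replicate 2. Beside these counts, 49.8% of all genes tested were higher in DOX replicate 1. Between the Ctrl libraries the median (replicate 1 minus replicate 2) was 0.41 in type I interferon response genes and 0.06 in inflammatory cytokine genes.

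**Figure D3:**
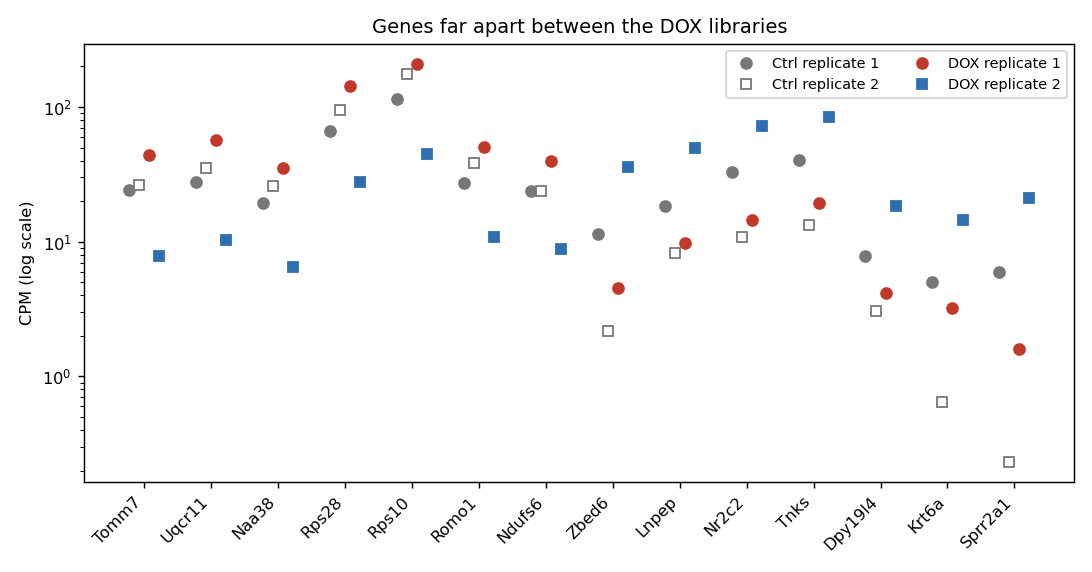
Level in each of the 4 libraries (CPM, log scale) of 14 genes far apart between the DOX libraries; grey marks Ctrl, red DOX replicate 1 and blue DOX replicate 2. In the 7 genes on the left DOX replicate 1 is highest and DOX replicate 2 lowest, such as Tomm7 at 44.2 and 7.90 CPM, and in the 7 on the right DOX replicate 2 is highest, such as Lnpep at 49.8 CPM.

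DPD, a prodrug of doxorubicin given at the same dose and by the same route, was set against DOX to see where the free drug differed. No gene passed edgeR (0% called, 4.29% at an unadjusted p under 0.05, which is 837 genes), and DESeq2 called 5 higher and 4 lower with DPD. The smallest edgeR adjusted p was 0.859. In the class II list 11 of 12 genes were higher with DPD than with DOX, with a median log2 difference of 0.57. Over all genes, 588 were higher and 249 lower with DPD at an edgeR unadjusted p under 0.05. The share of all genes above 0 is not given here, so nothing is read from the count of 11. Cd74 was at 789 and 647 CPM in DPD (DPD minus DOX 0.53, 95% interval 0.01 to 1.05), and Ciita at 18.0 and 19.2 CPM (1.01, 0.49 to 1.53, edgeR adjusted p = 0.979). Cd3e was at 4.08 and 4.15 CPM in DPD (1.27, 0.47 to 2.06). Hbb-bt was at 17.0 and 3.58 CPM in DPD, below all 4 DOX and Ctrl libraries (-2.57, -3.85 to -1.29). For Cdkn1a the difference was -0.07 (-0.51 to 0.37) and for Top2a 0.27 (-0.19 to 0.72), intervals that include 0 but do not show that the compounds act alike. These intervals are not adjusted for the number of genes, and both comparisons use the same DOX libraries.

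Whether the effect of DOX differed beside the conjugate was tested as R+X minus RP against DOX minus Ctrl. In R+X the drug was injected beside the tumour, so the route changed as well and cannot be told apart from the conjugate. No gene passed edgeR (0% called), 724 genes (3.71%) had an unadjusted p under 0.05, and DESeq2 called 0 higher and 6 lower. Among the lower were F13a1, with a difference of -1.81 ± 0.35 in edgeR (edgeR adjusted p = 0.998), and Pakap, with -4.69 ± 0.82 (edgeR adjusted p = 0.998). F13a1 was at 15.2 and 15.4 CPM in Ctrl, 24.9 and 28.8 CPM in DOX, 48.2 and 73.9 CPM in RP and 35.2 and 25.9 CPM in R+X. High RP and low Ctrl levels of F13a1 cannot be told apart here from a different effect of DOX. Pakap was at 29.5 and 45.3 CPM in DOX, 24.9 and 30.5 CPM in RP and 35.9 and 28.4 CPM in R+X. Only the Ctrl libraries, at 1.41 and 1.07 CPM, stood apart, so the Pakap value is not read as a different effect of DOX beside the conjugate.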

How the data were processed

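RNA-seq libraries of whole tumours were made with TRIzol extraction and the NEBNext Ultra kit, per the labels' protocols. HISAT2 2.1.0, StringTie 1.3.5 and DESeq2, with build GRCm38, appear in the submitters' processing notes. What each tool did, the annotation release and the use of strand were not given in the sources used, so overlapping and antisense genes cannot be told apart. The authors deposited raw, whole-number gene counts in 1 table of 43698 rows, and all 12 single-library files matched their column there. Groups came from the agent label. RP, R+X and R+D were read as Ru-PD-L1 alone, with DOX and with DPD. Replicate numbers follow the order of listing and pair nothing.

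The 12 libraries entered 1 quasi-likelihood model of edgeR 4.0.16 (R 4.3.3) with a mean per group. TMM scaling was used, and 19525 genes were kept by filterByExpr. The model had 6 residual degrees of freedom and a biological coefficient of variation of 0.257. The threshold was an adjusted p (Benjamini-Hochberg) under 0.05, and ± after a log2 fold change is its standard error. Differences between single libraries are of log2 CPM with a prior count of 2. The scripts were tested on simulated data. Named genes were, among those with a mean of at least 1 CPM and non-overlapping groups, the 12 of smallest p each way. Further named were the 12 furthest apart each way between the DOX libraries at 10 CPM or more, up to 4 members of smallest p and 4 furthest apart in a list, and a panel of 21 genes. A few other list members and genes called by an alternative were named after their values were seen. The 39 lists, their members and these rules were chosen with earlier results of these data known. Predicted genes and name copies were counted and not named by these rules. The fit was repeated with RLE scaling, without the low-count filter, with DESeq2 1.42.0 and limma 3.58.1 voom, on the DOX and Ctrl libraries alone, with name copies summed, without each library, and with other minimum levels and prior counts. Offsets for length and GC content were added after seeing the data.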

Additional observations from a re-analysis of the deposited data

How the results depend on the processing

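No paired analysis was possible because the columns carry no replicate numbers that groups share. Without 1 library of a group, the lone library was assumed to vary like the other groups. For DOX against Ctrl edgeR called 0 genes in either direction with RLE scaling, with summed name copies and with length and GC offsets (250 higher and 297 lower at an unadjusted p under 0.05, smallest adjusted p 0.0794), and limma-voom called 0. With no low-count filter and with DESeq2 1 gene was higher, and with only the DOX and Ctrl libraries 2. Leaving out each library gave 0 genes higher and 0 to 1 lower. The 1 was Xntrpc without DOX replicate 2, which had 3.53, 2.25, 0 and 3.66 CPM in Ctrl replicates 1 and 2 and DOX replicates 1 and 2. For DPD against DOX DESeq2 called 5 higher and 4 lower, and leaving out each library gave 0 to 1 higher. For the effect of DOX beside the conjugate DESeq2 called 6 lower, and leaving out each library gave 0 to 1 higher. The causes were not tested.

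Between the DOX libraries 627 and 527 genes were at least 2-fold higher in replicates 1 and 2. With a minimum of 1 CPM these were 990 and 984, and after removal of the length and GC trend 266 and 84. Of the values of single genes under alternatives, 663 kept their direction and side of the threshold, 27 changed sign and 3 passed the threshold. The sign of Mdm2 changed with voom (-0.00248) and with summed copies (-0.00147). Leaving out each library gave log2 fold changes of -0.17 to 0.16 for Mdm2, -0.18 to 1.27 for H2-Ob, -0.80 to 0.0642 for Cd8a, -0.54 to 0.10 for Gzmb, -0.0642 to 0.22 for Tcf7, -0.78 to 0.45 for Bax, -0.97 to 0.52 for Ifng, -0.54 to 0.25 for Cd274, -0.13 to 0.33 for Top2a, -0.23 to 0.68 for Top2b, -0.55 to 0.12 for Cdkn1a, -0.20 to 0.66 for Ccng1, -0.26 to 0.26 for Abcb1b, -0.84 to 0.41 for Cbr1 and -0.13 to 0.0135 for Tdp2. With length and GC offsets the sign changed in Top2a (-0.0195), Top2b (-0.0253), Bax (0.0514), Abcb1b (-0.0510), Tdp2 (0.0279) and Ifng (0.0725). List medians were below 0 in all 12 alternatives for MHC class II presentation (-0.97 to -0.41), T cells (-0.64 to -0.34) and skeletal muscle (-1.31 to -0.999), and above 0 for red blood cells (0.42 to 0.79). The median of ribosomal proteins (-0.11) changed sign in 4 of 12.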

Other observations

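Some genes and lists stayed apart between the DOX libraries after a smooth trend with transcript length and GC content was removed, an alternative chosen after seeing the data. The trend held 58.3% of the variance of the log2 ratio between the DOX libraries, and 350 genes were still at least 2-fold apart, against 15 to 114 between the libraries of the other groups. The SD of the log2 ratio after removal was 0.442 in DOX and 0.215 to 0.383 in the other groups. Skin genes had a median of -1.75 (DOX replicate 1 minus DOX replicate 2), further apart than before removal (-1.19). Before removal the Ctrl libraries were further apart than the DOX libraries in skin genes (1.88, replicate 1 minus replicate 2) and in neutrophil genes (1.42, against -0.52 in DOX). Neutrophil genes stood at -1.03, with 7 of 8 higher in DOX replicate 2: S100a8, a calcium-binding alarmin, was at 0.860 CPM in DOX replicate 1 and 3.06 CPM in DOX replicate 2, and 1.96 and 0.557 CPM in Ctrl. Inflammatory cytokine genes stood at -0.60 (18 of 19 higher in DOX replicate 2), type I interferon response genes at -0.52 (17 of 20) and complement genes at -0.44 (12 of 13). Red blood cell genes, which are short and were near equal before removal (-0.09), stood at -0.66, with 5 of 5 higher in DOX replicate 2. Other lists stayed higher in DOX replicate 1, such as MHC class I presentation at 0.33 (14 of 17) and hypoxia and glycolysis at 0.24 (16 of 18). Ribosomal proteins went from 0.84 to 0.27 (16 of 24 higher in DOX replicate 1) and oxidative phosphorylation from 0.66 to 0.23 (19 of 24). The share of all genes higher in either DOX library after removal is not given here, so nothing is read from these counts. The class II list went from 0.45 to 0.12.

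Single genes that stayed apart included Hypk, a chaperone partner of an acetyltransferase, at 52.0 CPM in DOX replicate 1 and 12.4 CPM in DOX replicate 2, above and below the 17.1 to 44.0 CPM of the 8 libraries of other treatments. Cenpw, a centromere protein gene, was at 19.2 and 6.07 CPM, against 12 to 17.5 CPM in those libraries. Dpm1, of the glycosylation donor pathway, was at 37.2 and 7.15 CPM, and those libraries ranged from 5.68 to 35.4 CPM. The length used was that of the longest annotated transcript, at 4170 bases in Hypk, 4143 in Cenpw and 4959 in Dpm1. Removal of the trend moved their log2 ratios from 2.07 to 2.26, from 1.65 to 2.37 and from 2.38 to 2.85. Where a shorter transcript was expressed, the trend removed would be that of the wrong length, which was not tested.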
